A study of Mus musculus with 17 samples.

Results

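Expression of 7 mouse genes was examined across stem cell types by RNA-seq. The genes are Foxo1, Foxo3 and Foxo4, Pik3ca, Akt1 and Akt2, and Tsc22d3, 7 of the 23891 gene symbols measured. They were found by symbol, and each gene is given by the RefSeq transcript with the highest mean FPKM over the 17 samples. Tsc22d3 was included for its fall from SSCs to MASCs, so its levels in those lines are a description and carry no test. The other 6 were tested.

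The samples were 4 lines of spermatogonial stem and progenitor cells (SSCs), 6 lines of multipotent adult spermatogonial-derived stem cells (MASCs), 2 embryonic stem cell (ESC) lines, 2 lines of induced pluripotent stem (iPS) cells, 2 cultures of haematopoietic stem and progenitor cells (HSCs) and 1 sample of mouse embryonic fibroblasts (MEFs). The Oct4-GFP strain gave SSC.1, SSC.2, MASC.1, MASC.2 and ESC.1. The 129mix strain gave SSC.4, MASC.3, MASC.4, ESC.2, both iPS lines and the MEFs, and the Gt(ROSA26)Sor-lacZ strain gave MASC.5 and MASC.6. SSC.3 and both HSC cultures were C57Bl/6J. SSCs grew on MEF feeders in a StemPro-34 medium with insulin, GDNF, bFGF, EGF, oestradiol and progesterone. MASCs, ESCs and iPS cells grew on MEF feeders in KnockOut DMEM with serum replacement and LIF. The iPS cells came from MEFs carrying a doxycycline-inducible OSKM cassette. HSCs were lineage-depleted bone marrow cells expanded on E4ORF1 endothelial feeders with soluble Kit ligand. Medium and cell type therefore cannot be told apart between SSCs and the other lines. The paper states that the 6 MASC and 2 ESC lines were subcloned, and that MASCs were derived by conversion of SSCs. No source used here says which lines come from separate animals, and lines of the same strain may share an origin. The tests treat lines as independent, so the p-values measure the spread between lines, which may in part be technical.

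Pik3ca encodes the catalytic p110 alpha subunit of phosphatidylinositol 3-kinase, which makes the membrane lipid that recruits the Akt kinases once growth factor receptors or insulin signalling are active. Akt phosphorylates the forkhead factors FoxO1, FoxO3 and FoxO4 and keeps them out of the nucleus, where they otherwise bind DNA and act on genes of cell-cycle arrest, survival and metabolism. In spermatogonia, GDNF signals through Akt, and Foxo1 is known for its role in maintaining the stem cell pool. Tsc22d3, also called Gilz, is a leucine-zipper protein induced by glucocorticoids and by FoxO factors, and is needed in the male germ line. FPKM measures RNA, while Akt and FoxO are largely controlled by phosphorylation, which was not measured.

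Tsc22d3 lies on the minus strand of chromosome X, and the files hold it as a pair of transcripts with separate start sites. The long transcript (NM_001077364) spans 137074068 to 137135061 on mm9, with 4 exons, 2148 bases and a coding sequence of 201 codons in GENCODE. The short transcript (NM_010286) spans 137074068 to 137077724, with 3 exons, 1971 bases and 137 codons. Their start sites are 57337 bases apart. They share 1631 bases, so the split of reads between them rests on the 517 bases of the long and the 340 bases of the short transcript that the other lacks. The 250 bases before each start site are shown, 5′ to 3′ on the gene's strand, because the start sites behaved differently among the cell types. Capitals mark the matches to the motifs searched.

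Long transcript, mm9 chrX:137135062-137135311, minus strand: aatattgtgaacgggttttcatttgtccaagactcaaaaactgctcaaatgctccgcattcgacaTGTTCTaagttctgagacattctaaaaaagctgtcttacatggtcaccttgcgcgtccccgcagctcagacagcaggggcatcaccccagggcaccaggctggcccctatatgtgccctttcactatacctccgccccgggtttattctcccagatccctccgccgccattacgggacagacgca
Short transcript, mm9 chrX:137077725-137077974, minus strand: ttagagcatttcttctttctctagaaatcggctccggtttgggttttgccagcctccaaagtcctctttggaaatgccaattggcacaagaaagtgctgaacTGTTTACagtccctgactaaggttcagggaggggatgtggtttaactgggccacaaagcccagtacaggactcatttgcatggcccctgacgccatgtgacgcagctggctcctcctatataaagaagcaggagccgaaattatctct

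The motifs were a FoxO core (GTAAACA, or TGTTTAC on the other strand), a glucocorticoid receptor half-site (AGAACA or TGTTCT) and the full palindrome of both half-sites set 3 bases apart. The window of the long transcript held 1 half-site, 185 bases before the start, and the window of the short transcript held 1 FoxO core, 148 bases before the start. Neither held the full palindrome. Of 32851 RefSeq promoter windows of the same length (GRCm38.p6), 16.1% held a half-site, 3.17% held a FoxO core and 0.00913% held the palindrome. The long window had 12 CpG and 52.4% GC, and the short window 5 CpG and 48.8% GC, beside medians of 6 CpG and 52.4% GC over the RefSeq windows. These matches describe the letters in the windows and are not binding sites. GENCODE also places a start at 137082877 that the files do not carry. The central bases of the short window matched no window of the RefSeq table, and the 3 RefSeq windows of Tsc22d3 held 0 FoxO cores and, in 1 of them, a half-site. Among the RefSeq windows of the other members, 1 of 2 Akt1 windows held a FoxO core. Those of Foxo1, Foxo3, Pik3ca and Akt2 held neither motif, and none was found for Foxo4.

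Depth and cell identity were checked before the members were compared. At 1 FPKM the coverage was 1.26 to 3.23 reads per base, and 13532 to 16272 transcripts per sample reached 1 FPKM. The summed FPKM of 8 spermatogonial markers was 761 to 1160 in SSCs and 212 to 255 in MASCs, with Zbtb16 and Ret below 1 in every MASC line. The 6 pluripotency markers summed to 1379 to 1697 in MASCs and to 7.39 to 114 in SSCs, where Nanog and Tdgf1 were below 1. The 6 blood progenitor markers summed to 896 to 1226 in the HSC cultures. The same cultures summed to 37911 and 19219 FPKM over 5 mast cell markers, with Tpsb2 at 25048 and 11721 and Cpa3 at 10252 and 6795, while no other sample exceeded 28.2. The libraries labelled HSC therefore held abundant mast cell transcripts. The 6 fibroblast markers, at 5067 in MEFs, summed to 771 in MASC.1, 683 in SSC.3, 295 in ESC.1, 272 in SSC.1 and 245 in HSC.2, and to less than 100 in the other lines. The 6 Sertoli and Leydig markers summed to 21.8 to 30.8 in SSCs and 4.91 to 20.2 in MASCs, with Amh and Cyp17a1 below 1 in SSCs. In bulk RNA, fewer cells of a type and less RNA per cell cannot be told apart.

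The long Tsc22d3 transcript measured 166, 166, 111 and 111 FPKM in SSC.1 to SSC.4. In the 6 MASC lines it ran from 0.270 to 1.29 FPKM, with a median of 0.505. All 4 SSC lines stood far above all 6 MASC lines, and the values ranked between 335th and 640th among the transcripts of an SSC line. ESCs measured 1.47 and 0.272 FPKM, iPS cells 0.769 and 0.819, HSCs 3.97 and 5.38, and MEFs 0.621. HSCs came second, at 0.0338 of the SSC mean, and the iPS, MEF and ESC.2 samples lay within the range of the MASC lines, with ESC.1 above it. The difference of mean log2(FPKM + 1) was -6.45 between MASCs and SSCs and -6.27 between ESCs and SSCs, and MASCs and ESCs differed by -0.18, with a sign that turned to 0.30 without ESC.1. These 3 differences are given without a test. Within the Oct4-GFP lines the MASC to SSC difference was -6.43 (2 MASC and 2 SSC lines), and within the 129mix lines it was -6.41 (2 MASC lines and 1 SSC line).

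The short Tsc22d3 transcript had another order. It measured 4.39, 4.30, 2.85 and 3.60 FPKM in SSCs, and 1.93, 3.27, 1.84, 1.69, 2.16 and 5.27 in MASC.1 to MASC.6, so the groups overlapped. ESCs measured 2.00 and 1.12, and iPS cells 1.24 and 1.51. HSCs were highest at 14.1 and 21.6 FPKM, followed by MEFs at 11.6. The short transcript was 2.51% to 3.15% of the gene's FPKM in SSCs, 71.7% to 88.9% in MASCs and 94.9% in MEFs. With both transcripts summed, the MASC to SSC difference was -5.11 on the log2 scale. HSCs did not enter the choice of the gene, and there the short transcript exceeded ESCs and iPS cells by 2.92 on the log2 scale (SE 0.319, limma adjusted p = 2.62e-05). The long transcript was also higher, by 1.66 (SE 0.295, limma adjusted p = 0.00102). The mast cell markers were also higher in HSCs than in ESCs and iPS cells. Between the HSC cultures their sum was higher in HSC.1 (37911 against 19219 FPKM), while both Tsc22d3 transcripts were higher in HSC.2. The part of mast cells in these increases was not tested.

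**Figure D1:**
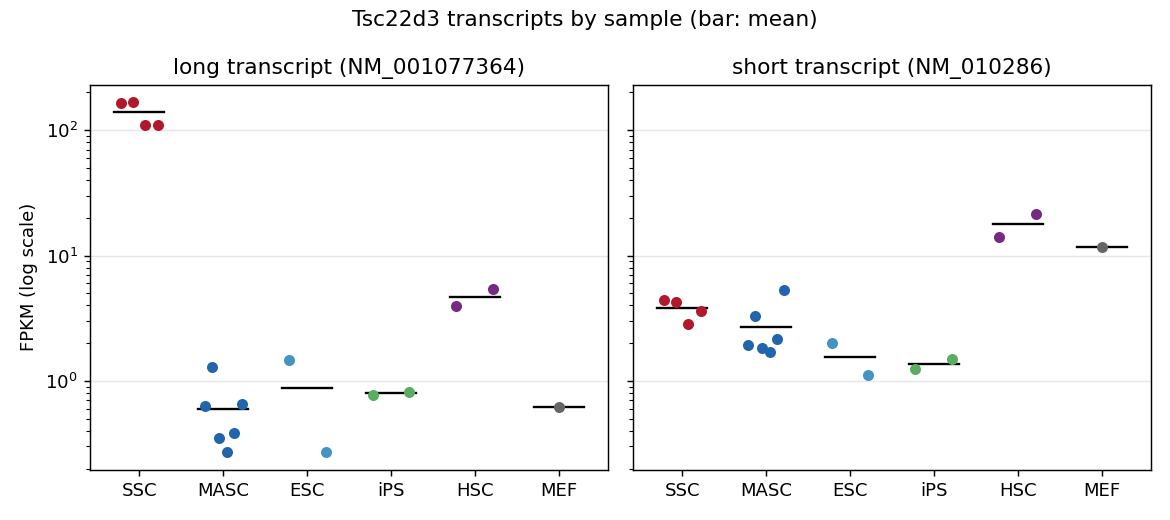
FPKM of the long (left) and short (right) Tsc22d3 transcript on a log axis in the 17 samples, grouped by cell type, with a bar at each mean. The long transcript lies at 111 to 166 FPKM in the 4 SSC lines and below 6 elsewhere, and the short transcript is highest in HSCs (14.1 and 21.6) and MEFs (11.6).

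Of the 6 tested members, 4 were lower in MASCs than in SSCs (Foxo1, Foxo3, Akt2 and Pik3ca) and 0 were higher, by limma on log2(FPKM + 1) with an adjusted p under 0.05 over 32661 transcripts. Over all transcripts, 19.5% were lower and 11.4% were higher. Among the 20119 transcripts at 1 FPKM or more in at least 2 samples, 28.8% were lower and 3755 were higher when tested alone. The median difference was -0.587 over the 6 members, -0.00480 over all transcripts and -0.123 over the transcripts at 1 FPKM or more, and this last shift is removed by quantile normalization. In 3 of the 6 (Foxo1, Pik3ca and Akt2), every MASC line was below every SSC line, as for 15.4% of all transcripts. The rule of the study's methods was read as an unadjusted p under 0.05 and a change of 2 or more on the log2 scale. By this reading, on log2(FPKM + 1), 0 of 6 were lower, beside 2.21% of all transcripts. The study's results describe a change of more than 2-fold, a reading that was not applied here. The calls of Foxo1 and Akt2 were kept under the other adjustments, but those of Foxo3 and Pik3ca were not. Foxo3 was lost with strain as a block (limma adjusted p = 0.0714) and Pik3ca with quantile normalization (limma adjusted p = 0.563). Both were lost with replicate number as a block (limma adjusted p = 0.0559 and 0.0644).

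Foxo1 (NM_019739, mm9 chr3:52072259-52154031) carried the largest fall of the tested members. It measured 40.9, 26.3, 27.8 and 34.4 FPKM in SSC.1 to SSC.4. The MASC lines ran from 6.45 to 10.8 FPKM with a median of 8.66. The groups did not overlap, and the SSC mean of 32.3 ± 6.68 (SD, n = 4) was 3.81 times the MASC mean of 8.49 ± 1.77 (SD, n = 6). The difference was -1.81 on the log2 scale (SE 0.166, limma adjusted p = 3.55e-05), and an exact two-sided permutation test gave p = 0.00476, the smallest that 210 regroupings allow. ESCs measured 7.51 and 8.60 FPKM, which was -1.86 against SSCs (SE 0.223, limma adjusted p = 0.000359). The fall was -2.16 within the Oct4-GFP lines and -1.67 within the 129mix lines. iPS cells measured 7.95 and 13.0 FPKM, HSCs 1.75 and 3.46, and MEFs 3.24. SSCs stood apart from every other cell type, and the ranges of iPS cells, MASCs and ESCs overlapped.

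Foxo3 (NM_019740, chr10:41905592-41996548) varied more among lines. SSCs measured 44.6, 15.3, 23.9 and 38.3 FPKM. MASCs measured 18.8, 11.1, 8.49, 7.97, 7.64 and 5.43 FPKM. SSC.2 was lower than MASC.1, so the groups overlapped. The difference was -1.52 (SE 0.360, limma adjusted p = 0.00999, exact permutation p = 0.00952), and it was -1.32 with strain as a block (adjusted p = 0.0714). ESCs measured 10.4 and 7.36 FPKM and differed from SSCs by -1.58 (SE 0.483, limma adjusted p = 0.0440), a call that was lost on leaving out any of SSC.1, SSC.3, SSC.4, MASC.2, MASC.3, MASC.4, MASC.5, ESC.1 and ESC.2 (adjusted p = 0.0573 to 0.246). HSCs measured 16.8 and 22.8 FPKM, iPS cells 8.34 and 8.92, and MEFs 10.2.

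Foxo4 (NM_018789, chrX:98449867-98456212) did not pass the test between MASCs and SSCs. It measured 20.4, 21.3, 15.0 and 35.6 FPKM in SSCs and 15.1 to 22.6 in MASCs, with a median of 16.1. SSC.4 was highest and SSC.3 was below every MASC line. The difference was -0.33 with a 95% interval of -0.807 to 0.137 (limma adjusted p = 0.282, exact permutation p = 0.167). Without SSC.3 the exact permutation p was 0.0357. ESCs measured 17.1 and 13.3 FPKM, iPS cells 17.8 and 20.8, HSCs 8.17 and 11.3, and MEFs 8.01.

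The FoxO composition therefore differed among the cell types. With Foxo6, the remaining paralog, the 4 genes summed to 79.1 to 117 FPKM in SSCs and 29.3 to 42.0 in MASCs. Foxo4 made up 17.4% to 30.8% of that sum in SSCs and 35.9% to 54.6% in MASCs. Its mean share was the largest of any FoxO gene in MASCs (48.0%), and also in ESCs (46.5%) and iPS cells (49.0%). In MASC.1, however, Foxo3 had the largest share (44.7%). Foxo3 made up 60.0% and 62.8% in HSCs. Foxo6 measured 7.34 to 20.8 FPKM in SSCs and 0.306 to 1.43 in MASCs, a difference of -3.00 (SE 0.279, limma adjusted p = 3.88e-05). Shares compare FPKM, a level per length, and are given without a test.

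**Figure D2:**
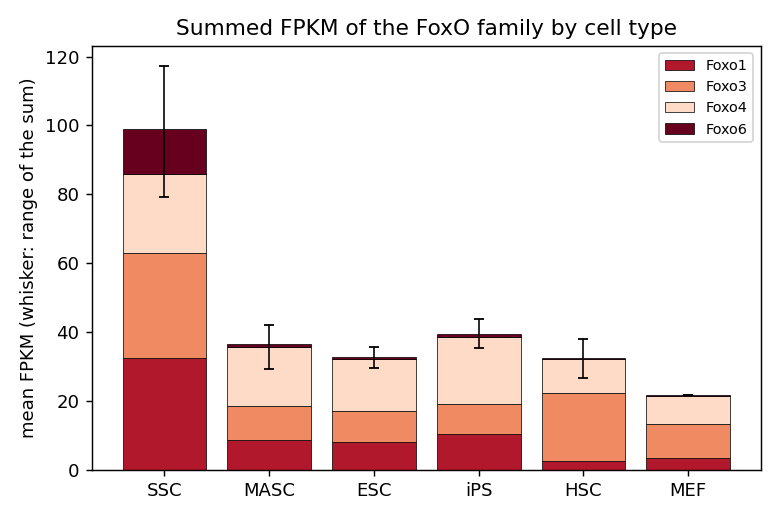
Mean FPKM of the 4 FoxO genes, stacked by cell type, with whiskers from the lowest to the highest sample sum (MEF has 1 sample). The FoxO sum is highest in SSCs (79.1 to 117 FPKM), and Foxo4 is the largest part of the mean sum in MASCs, ESCs and iPS cells.

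Pik3ca (NM_008839, chr3:32335073-32367408) fell by a small amount. SSCs measured 5.41, 6.06, 6.41 and 5.85 FPKM. MASCs measured 3.71 to 4.88 FPKM with a median of 4.43. All SSC lines were above all MASC lines, and the ratio of means was 1.36. The difference was -0.37 (SE 0.0873, limma adjusted p = 0.00928, exact permutation p = 0.00476). It depended on the scale between libraries, since quantile normalization left -0.10 (adjusted p = 0.563). ESCs measured 3.52 and 5.04 FPKM and differed from SSCs by -0.41 (SE 0.117, limma adjusted p = 0.0343). Without ESC.1 that difference was -0.20 (adjusted p = 0.330), and leaving out any of SSC.2, SSC.3, SSC.4, MASC.3 and MASC.5 also ended the call (adjusted p = 0.0506 to 0.0700). iPS cells measured 4.19 and 4.64 FPKM, HSCs 3.85 and 6.63, and MEFs 5.88.

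Akt2 (NM_007434, chr7:28390879-28424472), the isoform best known for its part in insulin-stimulated glucose uptake, was lower in MASCs. SSCs measured 34.7, 36.7, 25.4 and 30.4 FPKM. MASCs measured 14.7 to 21.0 FPKM with a median of 17.6. The groups did not overlap, and the SSC mean was 1.79 times the MASC mean. The difference was -0.80 (SE 0.115, limma adjusted p = 0.000577, exact permutation p = 0.00476). ESCs measured 17.6 and 15.8 FPKM, a difference of -0.88 from SSCs (SE 0.155, limma adjusted p = 0.00314). The second Akt2 transcript (NM_001110208) ran from 12.1 to 33.2 FPKM in SSCs and 6.71 to 14.2 in MASCs, and was lower by 1.25 on the log2 scale in MASCs (SE 0.304, limma adjusted p = 0.0114).

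Akt1 (NM_009652, chr12:113892032-113912487), the widely expressed isoform, did not pass the test between MASCs and SSCs. SSCs measured 54.1, 32.9, 61.0 and 29.5 FPKM. MASCs measured 58.9, 53.1, 26.7, 30.1, 31.7 and 33.6 FPKM. The ranges overlapped almost entirely, and the difference was -0.18 with a 95% interval of -0.884 to 0.527 (limma adjusted p = 0.764, exact permutation p = 0.605). Within the Oct4-GFP lines it was 0.40 and within the 129mix lines -0.06. The highest Akt1 levels among SSCs were in SSC.3 and SSC.1 and the highest among MASCs in MASC.1 and MASC.2, and SSC.3, SSC.1 and MASC.1 were the lines with fibroblast markers above 100. MEFs measured 179 FPKM, and the part of feeder RNA in these levels was not tested. ESCs measured 40.0 and 20.3 FPKM and iPS cells 18.8 and 37.3.

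**Figure D3:**
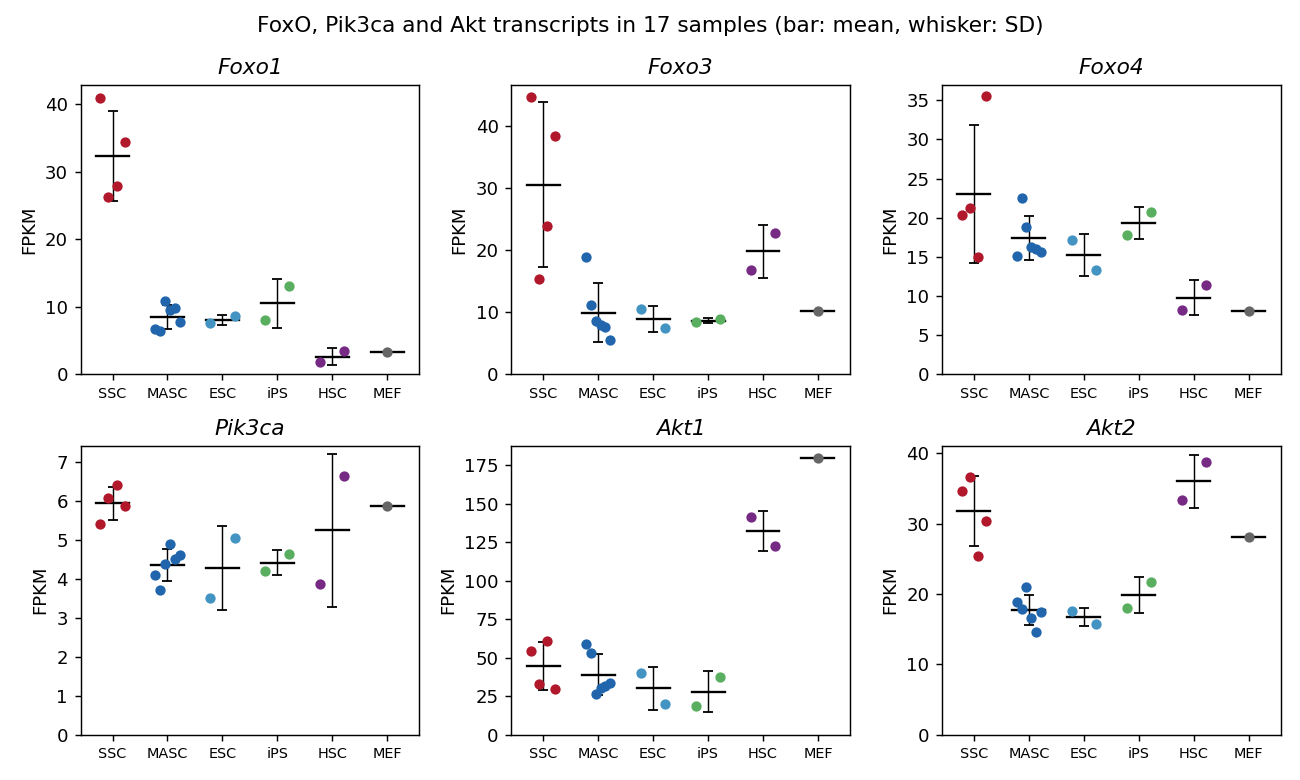
FPKM of the 6 tested members in each sample by cell type, with the mean as a bar and the SD as a whisker (n = 4 SSC, 6 MASC, 2 ESC, 2 iPS, 2 HSC, 1 MEF, which has no whisker). Foxo1, Pik3ca and Akt2 show no overlap between SSC and MASC lines, whereas Akt1 is highest in MEFs (179) and HSCs (141 and 123).

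ESCs repeated the direction seen in MASCs, with the same SSC lines as reference. Of the 6 members, 4 were lower in ESCs than in SSCs and 0 were higher, beside 13.8% lower and 7.67% higher over all transcripts and 22.4% lower among those at 1 FPKM or more. With the lines of high fibroblast markers left out the count was 2 (Foxo1 and Akt2). Between MASCs and ESCs, limma called 0 of the 6 members at an adjusted p under 0.05 and 0 at an unadjusted p under 0.05, beside 0.0306% of all transcripts called in either direction. The differences there ran from 0.03 for Pik3ca (95% interval -0.214 to 0.282) to 0.38 for Akt1 (95% interval -0.516 to 1.27). With 2 ESC lines these intervals do not show that the levels are alike.

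HSCs were set against ESCs and iPS cells in a fit over all 17 samples. There 3 of the 7 members were higher (Akt1, Akt2 and Tsc22d3) and 1 was lower (Foxo1), beside 14.6% higher and 16% lower over all transcripts. Akt1 was higher by 2.22 on the log2 scale (SE 0.421, limma adjusted p = 0.00159), at 141 and 123 FPKM. Akt2, at 33.3 and 38.7 FPKM, was higher by 0.94 (SE 0.153, limma adjusted p = 0.000519). Foxo1 differed by -1.52 (SE 0.265, limma adjusted p = 0.000874). Foxo4 differed by -0.76 (limma adjusted p = 0.0512), and Foxo3 by 1.08 (limma adjusted p = 0.0899). Pik3ca differed by 0.20 (limma adjusted p = 0.432), with a sign that rested on the HSC sample: 0.52 without HSC.1 (adjusted p = 0.0213) and -0.13 without HSC.2. The HSC cultures shared neither strain nor medium with the ESC and iPS lines. With strain as a block Akt1 differed by 1.19 (adjusted p = 0.124) and Foxo1 by -1.14 (adjusted p = 0.131). SSC.3 was the only other sample of the HSC strain, so the strain term for HSCs rested on that line. SSC.3 had the highest fibroblast marker sum (683 FPKM) and Akt1 level (61.0 FPKM) of the SSC lines. The block therefore cannot separate strain from other features of SSC.3. The mast cell markers were also higher in HSCs than in ESCs and iPS cells. Between the HSC cultures their sum was higher in HSC.1 (37911 against 19219 FPKM), as was Akt1, while Akt2, Foxo3 and Pik3ca were higher in HSC.2. The part of mast cells in these differences was not tested.

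**Figure D4:**
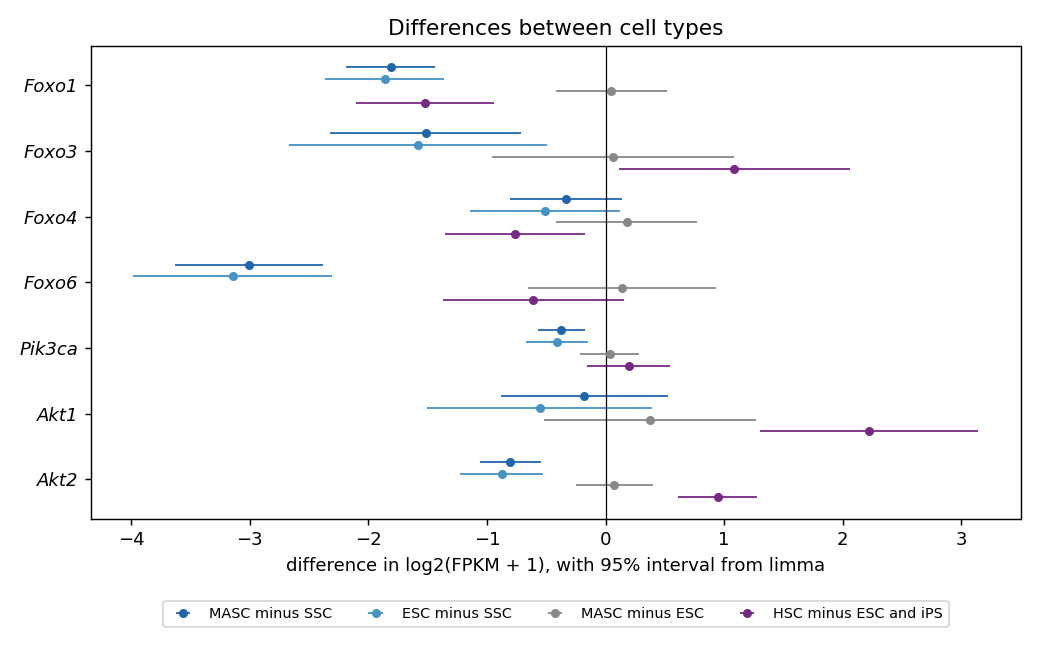
Differences in log2(FPKM + 1) for the FoxO, Pik3ca and Akt genes in 4 comparisons, each with its 95% interval from limma. All MASC minus ESC intervals (grey) include 0, and the intervals of Foxo1, Foxo3, Foxo6, Pik3ca and Akt2 for MASC minus SSC (dark blue) lie below 0.

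The wider PI3K-Akt pathway was read from a list of 31 genes without the members. Between MASCs and SSCs, 13 of the 31 were lower, 4 were higher and 14 did not pass the test, with a median difference of -0.336. Over all transcripts 19.5% were lower and 11.4% higher, and 28.8% were lower among those at 1 FPKM or more, a level that 30 of the 31 reached on average. Of the 20119 transcripts at 1 FPKM or more, 3755 were higher. The lower genes took in Foxo6, the regulatory subunit Pik3r3 (14.6 to 58.1 FPKM in SSCs, 1.57 to 3.81 in MASCs, difference -3.00, SE 0.349), and the kinase Sgk3, which acts beside Akt on shared substrates (-3.07, SE 0.281). The mTOR kinase gene (Mtor, -1.26) and its partner in complex 2, Rictor (-1.24), were also lower. Inpp5d, the SHIP1 phosphatase of blood cells, was higher in MASCs (at most 0.136 FPKM in SSCs, 5.39 to 11.6 in MASCs, difference 3.20, SE 0.241), although Cufflinks marked its estimate as failed in MASC.1 and iPS.1. Sgk1 was higher by 1.57 (SE 0.406), and Deptor, an inhibitor of mTOR, by 0.99 (SE 0.244). Both calls were lost with strain as a block (adjusted p = 0.0597 for Sgk1 and 0.0526 for Deptor). Between ESCs and SSCs, 11 of the 31 were lower and 3 were higher, beside 13.8% lower and 7.67% higher over all transcripts. Of the 20119 transcripts at 1 FPKM or more, 4507 were lower and 2612 higher in ESCs.

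Genes known as FoxO targets were called in both directions. Of 20, 6 were higher in MASCs, 5 were lower and 9 did not pass the test, and the median difference was 0.0423. The count of lower genes was near the share over transcripts (19.5% of all, 28.8% of those at 1 FPKM or more). Over all transcripts, 11.4% were higher. Of the 20119 transcripts at 1 FPKM or more, a level that 19 of the 20 targets reached on average, 3755 were higher. Gadd45a, a stress-response gene, rose from 6.25 to 16.3 FPKM in SSCs to 39.7 to 66.6 in MASCs (2.14, SE 0.240). Bcl2l11, which encodes the pro-death factor Bim, rose by 1.54 (SE 0.188). Klf2 rose by 2.26 (SE 0.714, limma adjusted p = 0.0375), a call lost without any of SSC.1, SSC.2, MASC.1, MASC.2, MASC.3, MASC.5 and MASC.6 (adjusted p = 0.0568 to 0.103). The Klf2 call was also lost with strain as a block (limma adjusted p = 0.0969). Its difference was 4.25 within the Oct4-GFP lines and -0.05 within the 129mix lines. Ret, the GDNF receptor kinase, fell from 21.1 to 78.9 FPKM to 0.252 to 0.657 (-4.78, SE 0.295). The ubiquitin ligase Fbxo32 fell by 2.16 on the log2 scale (SE 0.349), and the sestrin Sesn3 by 1.62 (SE 0.146). In ESCs the counts against SSCs were likewise 6 higher and 5 lower, beside 7.67% higher and 13.8% lower over all transcripts. Of the 20119 transcripts at 1 FPKM or more, 2612 were higher and 4507 lower in ESCs.

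Steroid receptors and genes that glucocorticoids induce in many tissues were also called in both directions. Of 19 genes, 4 were higher in MASCs, 6 were lower and 9 did not pass the test, with a median difference of -0.300, and 14 had a mean of at least 1 FPKM. The count of lower genes was again near the 28.8% of transcripts at 1 FPKM or more. Of these 20119 transcripts, 3755 were higher. Over all transcripts, 19.5% were lower and 11.4% were higher. The glucocorticoid receptor Nr3c1 measured 6.03 to 12.5 FPKM in SSCs and 2.12 to 4.91 in MASCs (-1.08, SE 0.244, limma adjusted p = 0.00775), and was higher in HSCs than in ESCs and iPS cells by 2.09 (SE 0.303). Its call between MASCs and SSCs was lost with replicate number as a block (limma adjusted p = 0.0930). Zbtb16, a glucocorticoid-induced gene and also a spermatogonial marker, fell by 5.32 on the log2 scale (SE 0.276), and the receptor-kinase inhibitor Errfi1 by 1.20 (SE 0.250). Klf9 and Fkbp5 were among the 4 higher genes. Klf9 measured 8.15 to 21.1 FPKM in SSCs and 34.8 to 49.3 in MASCs (1.54, SE 0.226). Fkbp5 measured 27.6 to 49.9 and 43.5 to 52.6 FPKM (0.51, SE 0.153, limma adjusted p = 0.0301). The short Tsc22d3 transcript differed by -0.43 between MASCs and SSCs, with overlapping ranges. The part of glucocorticoids in these differences was not tested. The Fkbp5 call was lost on leaving out any of 7 lines (SSC.1, SSC.3, SSC.4 and MASC.3 to MASC.6, adjusted p = 0.0516 to 0.0882). The progesterone receptor Pgr was at most 0.0598 FPKM in SSCs and 0.115 in MASCs, too low for its call of higher to be read as expression, and was 1.78 and 14.7 FPKM in HSCs. In ESCs, 3 of the 19 were higher and 4 were lower than in SSCs, beside 7.67% higher and 13.8% lower over all transcripts. Of the 20119 transcripts at 1 FPKM or more, 2612 were higher and 4507 lower in ESCs.

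The other TSC22 family genes were called in both directions. Tsc22d1 measured 22.2 to 45.3 FPKM in SSCs and 152 to 264 in MASCs (2.70, SE 0.213, limma adjusted p = 1.45e-05). Tsc22d4 measured 36.9 to 58.7 and 14.9 to 20.4 FPKM (-1.26, SE 0.129), and Tsc22d2 11.9 to 12.6 and 3.83 to 5.93 FPKM (-1.24, SE 0.0870). In ESCs, 1 of the 3 was again higher and 2 were lower, beside 7.67% higher and 13.8% lower over all transcripts. Of the 20119 transcripts at 1 FPKM or more, 2612 were higher and 4507 lower in ESCs. Of the 4 family genes, each by its main transcript, Tsc22d3 was therefore highest in every SSC line and Tsc22d1 in every MASC line.

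**Figure D5:**
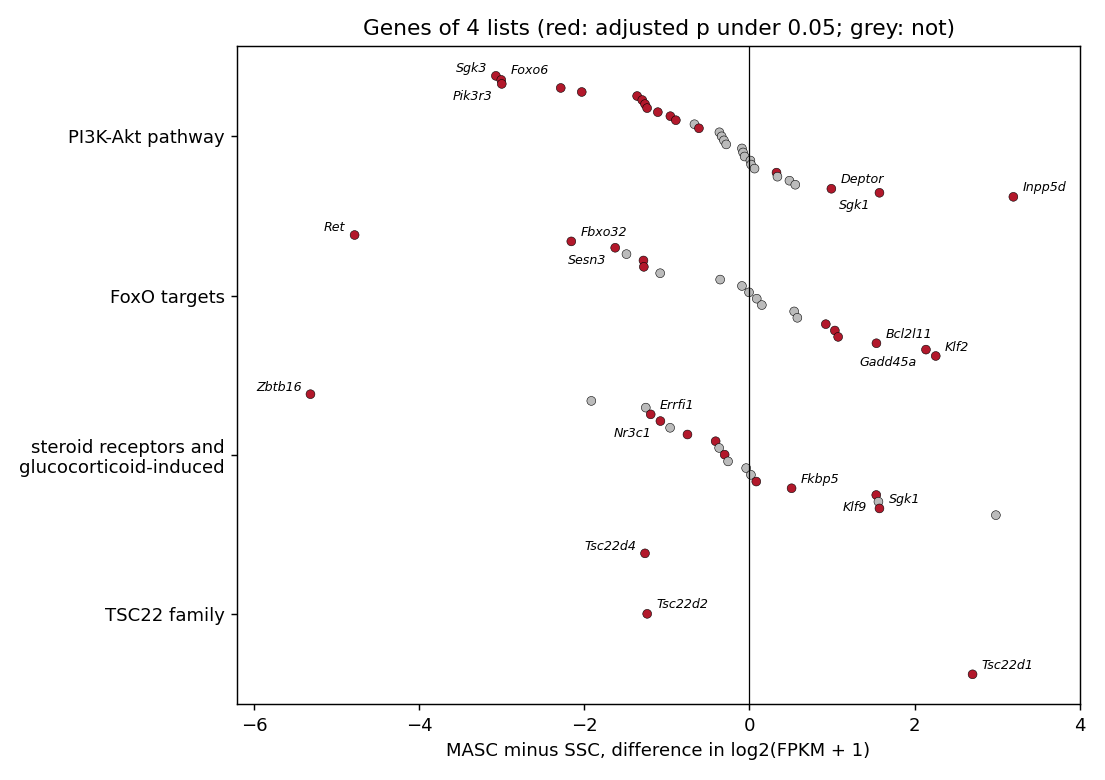
MASC minus SSC difference in log2(FPKM + 1) for each gene of the 4 lists, with genes at an adjusted p under 0.05 in red and the others in grey, spread vertically in order of difference. The PI3K-Akt list has 13 red points left of 0 and 4 right of it, and the FoxO target list 5 and 6.

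The genes most like Tsc22d3 and Foxo1 in pattern were ranked by Pearson's r of log2(FPKM + 1) over the 17 samples, among 13646 genes with a mean of at least 1 FPKM. The samples share cell types, so r mostly follows the SSC lines, and it is a description. For Tsc22d3 the leading genes were Taf9b (r = 0.985, 50.5 to 81.9 FPKM in SSCs and 1.09 to 1.75 in MASCs), Hspa4l (0.977), Shcbp1l (0.977), Brdt (0.977) and Dcp1b (0.975). Taf9b encodes a subunit of the general transcription factor TFIID, and Brdt a testis bromodomain protein. For Foxo1 they were Zfp867 (0.977), Usp34 (0.973), Naa35 (0.973), Piwil2 (0.973) and Edrf1 (0.970). Piwil2, a piRNA-pathway protein of the male germ line, measured 53.6 to 108 FPKM in SSCs and 3.50 to 9.16 in MASCs.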

How the data were processed

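RNA-seq was analysed in 17 samples grouped by their labels, and other assays of the study were not analysed here. The authors deposited 1 table per sample with an FPKM for each RefSeq transcript, made by TopHat2 2.0.11 alignment to mm9 and Cufflinks (version not given in the sources used here) with upper-quartile and GC correction, after removal of duplicate and multiply aligned reads. The deposited tables also give coverage, a signal (mean reads over each base), used only to judge depth. The tables hold no counts, so no count test was run. Upper-quartile scaling sets each library against its own expressed genes, so a shift shared by most genes is not measured.

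Each table had 33262 rows, and 601 further loci of the same transcripts were dropped, leaving 32661. Values were used as log2(FPKM + 1), a pseudocount of 1 that understates changes of low transcripts. Linear models with moderated variance and no trend (limma 3.58.1, R 4.3.3) were fitted to the 12 SSC, MASC and ESC lines, and to all 17 samples for HSCs against ESCs and iPS cells. P-values were adjusted by the Benjamini-Hochberg method over all transcripts, and the step was tested on simulated data. Single members were also compared by an exact permutation test. The members and gene lists were chosen with earlier results of these data known, so neither is independent support.

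Named genes were the members; up to 3 genes per list and direction with the largest difference among those called between MASCs and SSCs; Foxo6, Nr3c1 and Pgr; and the 5 genes most like Tsc22d3 and Foxo1. 1 further gene of the rule is not reported here. Mtor and Rictor were added after their values were seen. Promoter windows were read from the mm9 genome at the transcript starts as deposited. The inner exon limits and coding lengths of Tsc22d3 came from GENCODE vM1. Alternatives were a pseudocount of 0.1, a filter of 1 FPKM in at least 2 samples, quantile normalization, a variance trend with robust estimation, other samples in the fit, blocks for replicate number and strain, the call rule of the study's methods, transcripts summed per gene, and each line left out in turn. Leaving out the 5 samples other than MEFs with fibroblast markers over 100 FPKM was added after the data were seen, and a lone ESC or HSC sample was then assumed to vary like the other groups.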

Additional observations from a re-analysis of the deposited data

How the results depend on the processing

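Call rule (log2 difference of at least 2, raw p under 0.05): MASCs against SSCs had 590 transcripts higher and 721 lower, and 0 members lower. The pathway list had 1 higher and 5 lower, FoxO targets 2 and 2, steroid genes 1 and 1, and the TSC22 family 0 lower. ESCs against SSCs had 643 higher and 828 lower, 0 members lower, then 1 and 5, 2 and 2, 0 and 1, and 0 lower in the lists. MASCs against ESCs had 13 and 35. HSCs had 1552 and 1354, with 1 member higher and 0 lower. No source used here says whether same-numbered lines are paired, and some of them also share a strain. Their deviations from the group means correlated between -0.355 and 0.414 over 8 pairs. With 2 ESC lines the deviations mirror each other, so this range cannot decide whether lines are paired. With the replicate block, MASCs against SSCs had 2271 higher and 3674 lower, 2 members lower (Foxo1 and Akt2; adjusted p = 0.0559 for Foxo3 and 0.0644 for Pik3ca), 2 pathway genes higher, 3 FoxO targets lower and steroid genes 2 and 2. ESCs against SSCs had 1272 and 2105 under this block, 2 members lower, 2 FoxO targets lower and steroid genes 1 and 2. MASCs against ESCs had 0 and 2. With the strain block, 2 steroid genes were higher in MASCs than SSCs, and 0 transcripts were higher in MASCs than ESCs. HSCs had 2530 and 2865 under the strain block, with 0 members lower, but there the strain term for HSCs rested on SSC.3 alone. Quantile normalization left 2 members lower in ESCs and an exact permutation p of 0.210 for Pik3ca. For MASCs against ESCs, the pseudocount of 0.1 gave 3 and 14, the filter 5 lower and the fit over all 17 samples 0 higher. The count of members lower in HSCs was 2 with the pseudocount, the filter, the trend and summed transcripts, with Foxo4 added, and 0 in HSC, ESC and iPS samples alone. Without the samples of high fibroblast markers, ESCs against SSCs had 2 members lower, FoxO targets 3 and 3, 1 pathway gene higher and 1 steroid gene higher, the pathway list had 1 higher in MASCs, and MASCs against ESCs had 3 and 122.

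Leaving out each line in turn gave, for ESCs against SSCs, 2437 to 4869 transcripts lower (2437 without ESC.2, 2829 without ESC.1), 2 to 4 members lower (2 without SSC.3, SSC.4, MASC.3, MASC.5 or ESC.1), pathway genes 1 to 4 higher and 6 to 12 lower, FoxO targets 2 to 7 lower, and steroid genes 0 to 3 higher and 2 to 6 lower. MASCs against ESCs had 1 to 4 higher and 6 to 104 lower, and HSCs 3449 to 4932 lower (3449 without HSC.1). The exact permutation p of Foxo4 ran from 0.0357 to 0.488. The Tsc22d3 difference between MASCs and SSCs was -7.75 with a pseudocount of 0.1 and -6.56 to -6.35 without single lines. No difference past the threshold changed sign. Some differences that had not passed it did. Between MASCs and ESCs they included those of Foxo1, Foxo3, Pik3ca, Akt1, Nr3c1 and Pgr, and the untested one of Tsc22d3. Between MASCs and SSCs they included that of Akt1, and between HSCs and ESCs with iPS cells that of Pik3ca. The cause of these changes was not tested. Depth limits the values under 1 FPKM.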
